A study of Mus musculus with 4 samples.

Results

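Ion channel genes were followed in CD4+CD8+ double-positive thymocytes, the most numerous cells of the thymus, with and without the splicing factor gene Srsf1. The genes were those of protein_coding type whose symbols mark potassium channels (Kcn), voltage-gated calcium channels (Cacn) and sodium channels (Scn), TRP channels (Trpc, Trpm, Trpv), the CLC family (Clcn), store-operated calcium entry (Orai, Stim), inositol trisphosphate (IP3) receptors (Itpr) and ATP-gated P2X receptors (P2rx). The rule used symbols and not levels, and took in 181 of 53715 genes in the tables. It was set with earlier results of these data known. The symbol pattern also takes in auxiliary subunits and a pair of genes that are named after a TRPC gene and are not channels, Trpc4ap and Trpc5os. The 4 RNA sequencing libraries came from thymi of C57BL/6 mice aged 6 to 8 weeks. There were 2 libraries labelled WT and 2 knockout (KO) libraries of genotype LCKCre/+ Srsf1fl/fl, in which Lck regulatory sequence drives Cre recombinase from early thymocyte stages and the floxed Srsf1 gene is the target. The sources used here do not say whether WT mice carried Cre or whether each library is a separate mouse, so p-values measure the spread between these libraries, which may be technical.

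Ion channels set the membrane potential of lymphocytes and the size and length of their calcium signals. When the T cell receptor is engaged, IP3 opens IP3 receptors in the endoplasmic reticulum, the store empties, the STIM sensors in its membrane open ORAI pores in the plasma membrane, and calcium enters and activates calcineurin. Potassium channels carry positive charge out of the cell and so keep the driving force for calcium entry. Calcium signals in general take part in the positive selection of thymocytes.

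Each library held 35862730 to 37033180 counts, and 0 counts in a library allows up to 3 counts, which is 0.0810 to 0.0837 CPM (counts per 1000000 counts of the library); this covers counting error only. For Srsf1 itself, counts were 4821 and 4485 in WT and 1839 and 1772 in KO, a log2 fold change of -1.39 (SE 0.09). All 10 markers of double-positive thymocytes were present, at a summed 8182 to 8501 CPM in WT and 11559 to 11971 CPM in KO. Of these 10 markers, 6 rose and 0 fell. Of 6 markers of more mature thymocytes 4 fell and 1 rose, and their sum was 460 to 477 CPM in WT against 254 to 289 CPM in KO. The summed markers of other cells were 10.6 to 12.4 CPM in WT and 18.8 to 21.3 CPM in KO for 6 B cell genes, 6.22 to 7.09 and 3.60 to 8.88 CPM for 8 myeloid genes (S100a8 at 0), and 1.92 to 2.45 and 2.36 to 3.65 CPM for 6 neuronal genes (Snap25 at 0). Thymic epithelial genes summed to 9.89 to 13.4 CPM over all libraries, with Foxn1 and Krt5 at 0. The 4 endothelial genes summed to 123.1 and 136 CPM in WT and 119.5 and 116 CPM in KO, nearly all of it Pecam1, with Tek and Cdh5 at most 1 and 4 counts in a library. Dendritic, erythroid and mesenchymal genes summed to at most 6.05 CPM in any library, with Cd209a and Col3a1 at 0. In sorted bulk cells a smaller share of cells of a type and less RNA per cell cannot be told apart, and the part that any of these shifts had in the values below was not tested.

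Of the 181 genes, 79 had enough counts to be tested, and 102 did not. Of the untested genes, 50 had 0 counts in all 4 libraries, and the highest summed count was 42, for the sodium-activated potassium channel gene Kcnt1. Levels are compared between genes as RPKM, the authors' unit corrected for gene length and library total: 37 members had a mean of at least 1 RPKM over the 4 libraries and 19 of at least 10 RPKM. The highest was Trpc4ap, a TRPC4-associated protein that is not a channel, at a mean of 80.9 RPKM. Next in order were the potassium channel genes Kcna3 (63.3 RPKM), Kcnn4 (54.9) and Kcnh2 (52.9), then Orai2 (47.6), Itpr2 (38.3), P2rx1 (32.1), Trpv2 (29.9), Kcnab2 (25.1) and Trpm7 (23.4). This order is of means over both groups. Neighbours in it overlapped across the 4 libraries except Orai2 and Itpr2, Itpr2 and P2rx1, and Trpv2 and Kcnab2. In both WT libraries Orai2 was above Kcnh2, and in both KO libraries Trpm7 was above Kcnab2.

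**Figure D1:**
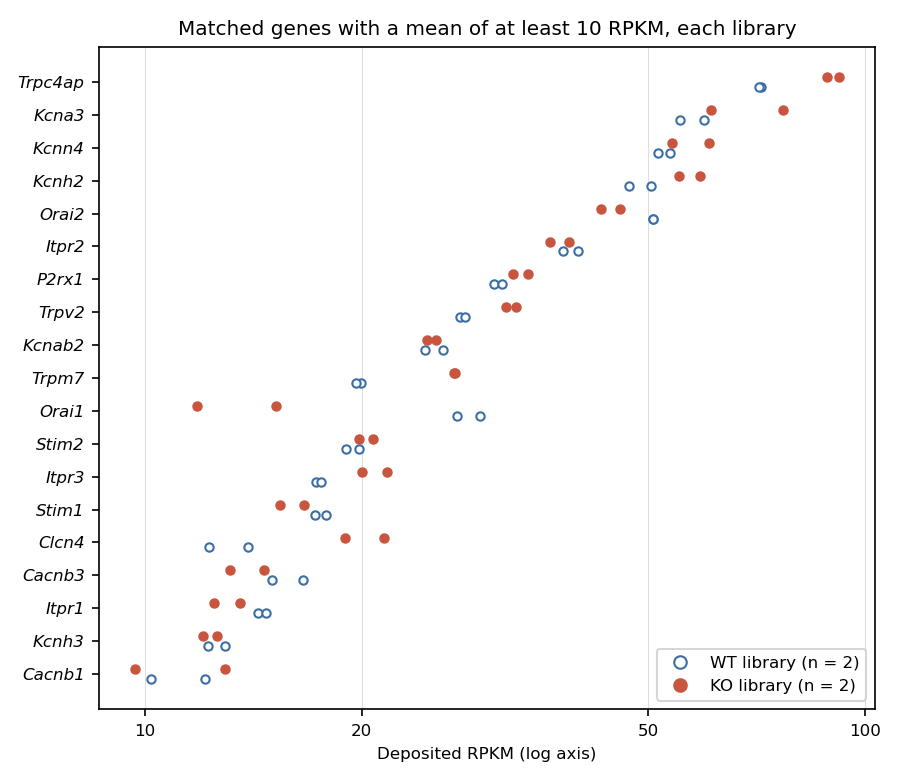
Deposited RPKM (log axis) of the 19 matched genes with a mean of at least 10 RPKM, 1 row per gene and 1 point per library (open, 2 WT libraries; filled, 2 KO libraries). Orai1 shows the widest separation, with WT at 27.1 and 29.2 RPKM and KO at 11.8 and 15.2 RPKM, and most of the other rows lie close together or overlap.

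The comparison asked which channel genes changed with loss of Srsf1. At an adjusted p under 0.05 in a fit over all genes, 6 of 79 tested members rose and 5 fell. That is 13.9% of the tested members, against 14.5% of all 16588 genes tested; by direction the background was 6.63% higher and 7.89% lower. The members as a group were thus called about as often as genes at large. Among genes with a mean of at least 1 RPKM, 9 of 37 tested members were called (5 higher, 4 lower), where the background was 19.9% (9.27% higher, 10.6% lower). The median log2 fold change of the tested members was -0.07, beside 0.00 for all genes tested. For 43 of the 79 members, or 54.4%, the groups' libraries did not overlap, against 55.9% of all genes tested. The number of members that fell was 2 without WT replicate 2 and 3 without KO replicate 1. The nearest calls to the threshold were Itpr3 (adjusted p = 0.0454) inside it and Kcnh2 (0.071) outside it.

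**Figure D2:**
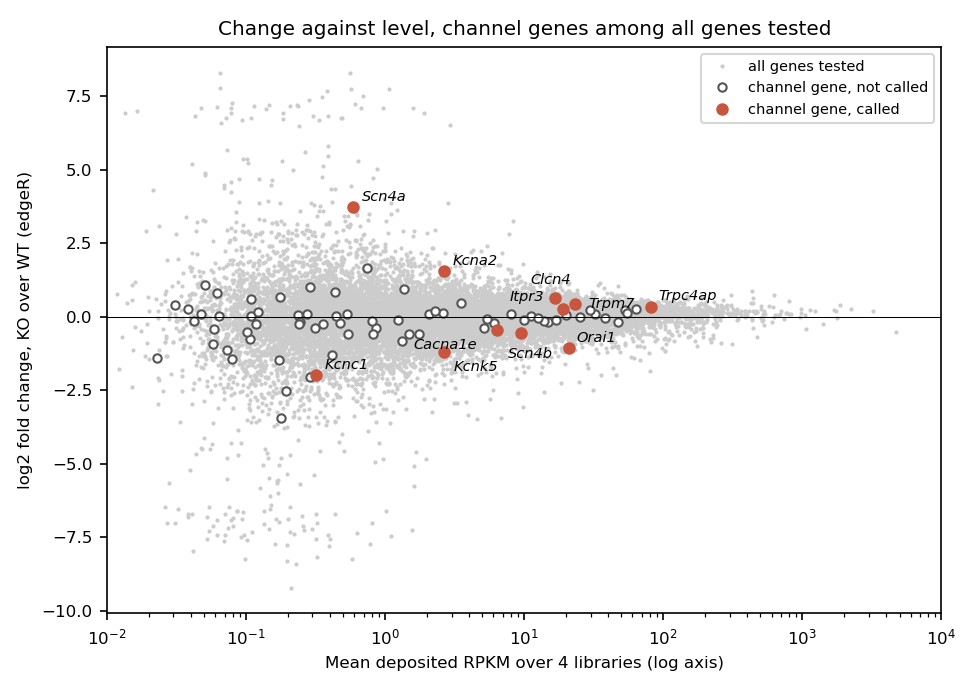
Log2 fold change (KO over WT, edgeR) against the mean deposited RPKM over the 4 libraries (log axis), with all 16588 genes tested in grey, 68 channel genes that were not called as open circles and 11 called genes as filled circles. Scn4a at 3.73 and Kcnc1 at -1.99 lie at low level; among channel genes with a mean above 10 RPKM, Orai1 at -1.06 and Clcn4 at 0.63 lie farthest from 0.

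For 5 of the called genes the 250 bases before an annotated transcription start overlapped no annotated exon, and the windows of the 4 that encode channels or exchangers are shown so that the promoters of genes that rose (Clcn4, Trpm7, Itpr3) can be set beside one of a gene that fell (Kcnc1). They are from RefSeq, build GRCm38.p6, 5′ to 3′ on the gene's strand: Clcn4 chr7:7299558-7299807 (minus), Trpm7 chr2:126876262-126876511 (minus), Itpr3 chr17:27057054-27057303 (plus) and Kcnc1 chr7:46396218-46396467 (plus). Capitals mark matches, on either strand, to any of 5 motifs: TGANTCA (AP-1), TGACGTCA (cyclic AMP response element), CAGNTG (an E-box), AGGTCA (ROR) and TATAAA, the box of some core promoters.
Clcn4: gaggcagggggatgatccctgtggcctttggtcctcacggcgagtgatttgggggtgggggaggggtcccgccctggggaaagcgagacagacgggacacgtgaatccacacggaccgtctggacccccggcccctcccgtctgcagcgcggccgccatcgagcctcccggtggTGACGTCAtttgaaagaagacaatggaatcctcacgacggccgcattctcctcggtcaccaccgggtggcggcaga
Trpm7: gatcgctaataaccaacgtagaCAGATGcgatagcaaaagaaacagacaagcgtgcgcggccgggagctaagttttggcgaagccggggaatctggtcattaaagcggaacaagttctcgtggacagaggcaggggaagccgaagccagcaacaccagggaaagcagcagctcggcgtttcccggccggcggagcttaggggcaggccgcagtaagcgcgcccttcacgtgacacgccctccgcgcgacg
Itpr3: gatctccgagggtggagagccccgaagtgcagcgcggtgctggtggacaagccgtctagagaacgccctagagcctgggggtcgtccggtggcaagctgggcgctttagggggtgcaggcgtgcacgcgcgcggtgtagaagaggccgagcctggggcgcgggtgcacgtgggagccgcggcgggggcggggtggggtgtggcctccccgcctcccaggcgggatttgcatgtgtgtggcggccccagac
Kcnc1: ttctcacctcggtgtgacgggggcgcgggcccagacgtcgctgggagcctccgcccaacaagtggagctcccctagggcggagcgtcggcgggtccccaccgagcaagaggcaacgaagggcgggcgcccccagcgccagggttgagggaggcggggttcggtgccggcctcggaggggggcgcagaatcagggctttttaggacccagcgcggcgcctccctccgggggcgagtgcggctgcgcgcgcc
The windows shown held 22, 26, 25 and 30 CpG pairs in that order. That of Trpc4ap, the non-channel gene, held 11 and no motif match. The median was 6 over 32817 promoter windows of this length and 8 over the 87 windows of tested channel genes. The other called genes, whose windows overlap annotated exons, held 4 (Scn4a), 6 (Cacna1e), 18 (Kcna2), 19 (Kcnk5), 23 (Scn4b) and 30 (Orai1). The Clcn4 window held 1 cyclic AMP response element, a motif in 1.548% of all windows. The Trpm7 window held 1 match to CAGNTG, a form of E-box found in 44.8% of all windows. Over the 87 windows of tested channel genes, the windows shown among them, the shares were 1.15% and 44.8%. The first of these shares counts the Clcn4 match itself. The windows of Itpr3 and Kcnc1 held no match to any of the 5 motifs. Other forms of E-box, such as CACGTG, which can be read in the windows of Clcn4, Trpm7 and Itpr3, were not searched. A second Clcn4 start, whose window overlaps Mir5620, is not shown. Of all promoter windows, 6.75% held the AP-1 motif, 14.0% the ROR motif and 12.4% the core promoter box. A match is a run of letters and not a measured binding site.

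Among the potassium channel pores, Kcna2 rose and Kcnk5 and Kcnc1 fell, while the 3 genes that made up most of the potassium pore RNA were not called. Kcna2, a pore gene of the voltage-gated Kv1 family (chr3:107101146-107115005, GRCm38, plus strand), stood at 1.33 and 1.37 RPKM in WT and 4.17 and 3.75 RPKM in KO. The KO libraries lay above both WT libraries. The fold change was 2.93 (log2 fold change 1.55, SE 0.15, adjusted p = 3.48e-05), and 16.1 ± 0.361 CPM in WT became 47.2 ± 3.56 CPM in KO (SD, n = 2 each). Its neighbour in the same cluster, Kcna3, encodes the main voltage-gated potassium channel of T cells and lies 63.1 kb upstream of it on the same strand, at a far higher level. Kcna3 overlaps Gm27008 on the opposite strand. Kcna3 had 59.7 and 55.3 RPKM in WT and 61.2 and 77.0 RPKM in KO, with 1 KO library close to WT and the other above it. Its log2 fold change was 0.27 (SE 0.11, 95% interval 0.03 to 0.51) and did not pass the test (adjusted p = 0.132), although it did without KO replicate 1 (0.0019) and with no filter on low counts (0.0378). Kcna2 made up 2.18% and 2.42% of the summed RPKM of the 8 Kcna genes in WT and 6.38% and 4.64% in KO.

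Kcnn4, the calcium-activated potassium channel of lymphocytes, had 51.6 and 53.6 RPKM in WT and 53.9 and 60.6 RPKM in KO. The log2 fold change was 0.12 with a 95% interval of -0.05 to 0.30 (adjusted p = 0.367). Kcnh2, which encodes the channel that repolarises heart muscle, had 50.5 and 47.0 RPKM in WT and 55.2 and 59.0 RPKM in KO. Both KO libraries were higher, the log2 fold change was 0.23 (SE 0.08), and the adjusted p by edgeR was 0.071; it was 0.0491 with no low-count filter, 0.0483 with a filter at 1 CPM, 0.0373 by DESeq2, 0.0268 by limma-voom and 0.0205 without KO replicate 1. Together Kcna3, Kcnn4 and Kcnh2 led the 77 potassium pore genes, whose summed RPKM was 184.5 and 179.9 in WT and 193.1 and 218.4 in KO.

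Kcnk5, an acid-sensitive channel of the tandem-pore (K2P) class (chr14:20140057-20181809, minus strand), had 356 and 553 counts in WT and 207 and 188 in KO. The WT libraries differed from each other more than the KO libraries did, and all KO values were lower. The log2 fold change was -1.22 (SE 0.28, adjusted p = 0.0123), and the call was lost without WT replicate 2 (0.128). Kcnc1, a Kv3 pore gene known from fast-firing neurons (chr7:46396497-46438704, plus strand), had 105 and 245 counts in WT and 47 and 42 in KO. This is under 1 RPKM in every library. Its log2 fold change of -1.99 (SE 0.51, adjusted p = 0.0208) likewise rested on WT replicate 2, without which it was -1.27 (adjusted p = 0.338). Of the 40 voltage-gated pore genes, 14 were tested, 1 rose, 1 fell and 16 had 0 counts in all libraries. Of 14 tandem-pore genes 4 were tested, and of 15 inward rectifiers (Kcnj) 3 were tested with no call. None of the 11 tested auxiliary potassium channel genes was called by edgeR. Kcnab2, a Kv beta subunit and the most abundant of them, had a log2 fold change of -0.01 (95% interval -0.19 to 0.17).

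**Figure D3:**
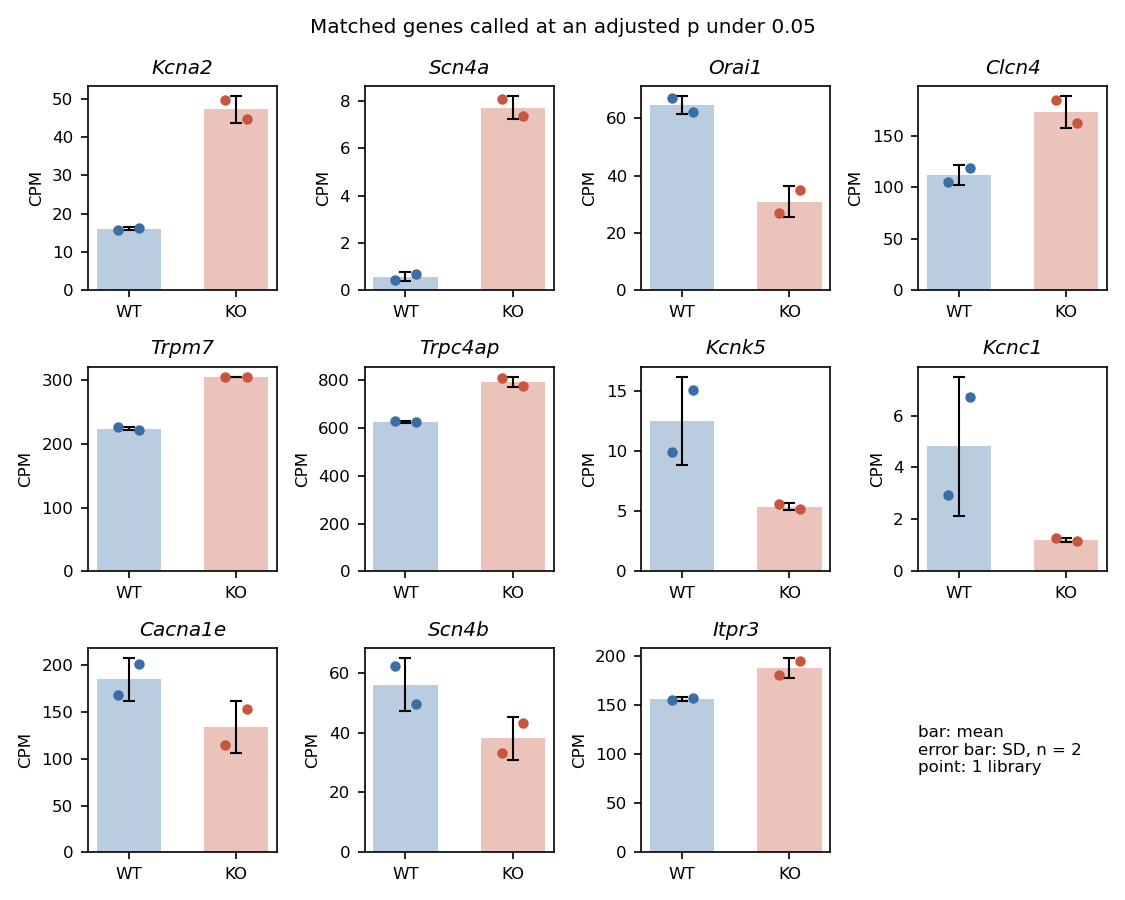
CPM of the 11 called genes, 1 panel per gene ordered from the smallest adjusted p, with bars for the mean of 2 libraries, error bars for the SD and 1 point per library (axes start at 0). KO points lie above both WT points for Kcna2, Scn4a, Clcn4, Trpm7, Trpc4ap and Itpr3 and below both for the other 5, and the WT points of Kcnk5 and Kcnc1 are far apart.

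In store-operated calcium entry, the pore gene Orai1 fell and no other of the 5 genes was called. Orai1 (chr5:123015074-123030456, plus strand), which encodes the pore of the calcium release-activated current, had 29.2 and 27.1 RPKM in WT and 11.8 and 15.2 RPKM in KO. The groups were well apart, and KO was 0.48 of WT (log2 fold change -1.06, SE 0.14, adjusted p = 0.000427). The call was made by edgeR without each library in turn, with log2 fold changes from -1.26 to -0.87. Orai1 overlaps Gm2479 on the opposite strand, and without a stated strand setting reads in the overlap cannot be told apart. Orai2, a related pore that assembles with Orai1, was the more abundant pore transcript and had 50.8 and 50.7 RPKM in WT and 45.6 and 43.0 RPKM in KO. Both KO libraries were lower, but the change of -0.20 (SE 0.07) gave an adjusted p of 0.0928 by edgeR; DESeq2 (0.0456) and limma-voom (0.049) called it. Orai3, the third pore gene, was low, with 1.38 and 2.23 RPKM in WT and 0.883 and 1.49 RPKM in KO, and its groups overlapped.

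The share of Orai1 in the summed Orai RPKM was 35.8% and 33.9% in WT and 20.2% and 25.5% in KO. The sum itself was 81.4 and 80.1 RPKM in WT and 58.3 and 59.7 RPKM in KO. The store sensors moved less. Stim1 had 17.2 and 17.9 RPKM in WT and 15.4 and 16.6 RPKM in KO (log2 fold change -0.13, 95% interval -0.30 to 0.05). Stim2, which senses small falls of the store, had 19.9 and 19.0 RPKM in WT and 19.8 and 20.7 RPKM in KO (0.06, 95% interval -0.13 to 0.25). The intervals of both sensors lie above the whole interval of Orai1, -1.36 to -0.75; the difference between genes was not itself tested.

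**Figure D4:**
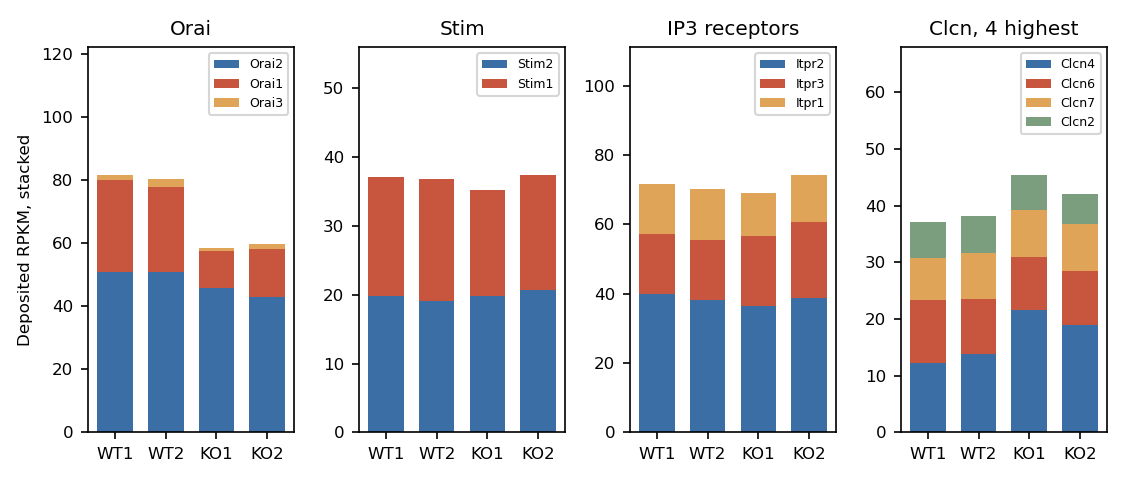
Deposited RPKM stacked by gene in each of the 4 libraries (WT1 and WT2, KO1 and KO2) for Orai, Stim, the IP3 receptors and the 4 highest Clcn genes, each panel with its own axis from 0. The Orai stack is shorter in both KO libraries, most of all in its Orai1 part, and the Clcn4 part is taller in both KO libraries.

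All 3 IP3 receptor genes, which encode the calcium release channels of the endoplasmic reticulum, were above 10 RPKM. Itpr2 was the highest, at 39.98 and 38.0 RPKM in WT and 36.5 and 38.8 RPKM in KO, with overlapping groups. Itpr3 (chr17:27057304-27122223, plus strand) rose from 17.3 and 17.5 RPKM to 20.05 and 21.7 RPKM. The KO libraries were both higher, with a log2 fold change of 0.27 and an SE of 0.08. The adjusted p was 0.0454 with all libraries, 0.172 with WT replicate 1 left out, 0.11 for WT replicate 2 and 0.153 for KO replicate 2, and Itpr3 overlaps the antisense gene Itpr3os. Itpr1 had 14.4 and 14.7 RPKM in WT and 12.5 and 13.5 RPKM in KO (log2 fold change -0.16, 95% interval -0.33 to 0.01). Itpr3 thus made up 24.1% and 25.0% of the summed Itpr RPKM in WT and 29.0% and 29.3% in KO.

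Of the voltage-gated calcium channel genes, Cacna1e was the only pore gene above 1 RPKM and it fell. Cacna1e encodes the pore of R-type current (chr1:154390731-154884501, minus strand). It had 6.67 and 7.97 RPKM in WT and 4.55 and 6.08 RPKM in KO, so the higher KO library came near the lower WT library. The log2 fold change was -0.46 (SE 0.13, adjusted p = 0.0304), and the call was lost without WT replicate 2 (-0.32, 0.082) or KO replicate 1 (-0.25, 0.117). Cacna1e held 88.1% to 91.4% of the summed RPKM of the 10 pore genes in every library. Of 16 auxiliary calcium channel genes 6 were tested and 0 called by edgeR. The beta subunit gene Cacnb3 had a log2 fold change of -0.18 (SE 0.11) and Cacnb1 one of 0.02 (SE 0.15).

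Voltage-gated sodium channel genes moved in both directions. Scn4b, an auxiliary beta subunit gene (chr9:45138395-45154152, plus strand), had 12.5 and 9.97 RPKM in WT and 6.63 and 8.67 RPKM in KO. The groups were close but did not overlap, and the log2 fold change was -0.55 (SE 0.16, adjusted p = 0.0341). It was not called without WT replicate 1 (-0.37, 0.194) or KO replicate 1 (-0.36, 0.136).

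Scn4a, which encodes the sodium channel of skeletal muscle, rose from near absence. It had 16 and 26 counts in WT and 299 and 268 counts in KO, or 0.0634 and 0.101 RPKM against 1.15 and 1.05 RPKM. The KO libraries were far above WT, with a 13.3-fold change (log2 fold change 3.73, SE 0.43, adjusted p = 0.000172). The 5 muscle markers summed to 2.17 to 2.68 CPM in WT and 3.67 to 4.59 CPM in KO, and none was called by edgeR. Ttn had 48 and 34 counts in WT and 76 and 111 in KO, Ckm 0 and 6 against 20 and 10, and Actn2 30 and 58 against 40 and 46, while Myh7 and Actc1 were at 0. Their part in the Scn4a values was not tested. Scn4a lies at chr11:106318592-106353288 on the minus strand, 3.8 kb from Cd79b, a B cell receptor gene on the same strand beyond its 3′ end. Cd79b rose too: it was at 8.95 ± 1.89 CPM in WT and 16.6 ± 1.48 CPM in KO (adjusted p = 0.0239). Whether reads run from Scn4a into Cd79b was not tested.

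Among TRP channels, Trpm7 rose and the others were not called. Trpm7 (chr2:126791565-126876230, minus strand), a magnesium- and calcium-conducting channel fused to a kinase, had 19.96 and 19.6 RPKM in WT and 26.9 and 27.0 RPKM in KO. The libraries of each group were nearly equal, and the log2 fold change was 0.45 (SE 0.07, adjusted p = 0.00143). Trpm7 overlaps Gm14212 on the opposite strand. Trpv2, the most abundant TRP channel gene, had 27.4 and 27.8 RPKM in WT and 31.7 and 32.7 RPKM in KO. Both KO libraries were higher, but the change of 0.23 (SE 0.08) gave an adjusted p of 0.0801. Trpm4, a calcium-activated cation channel, had under 1 RPKM in every library and overlapping groups. Of 7 TRPC genes only Trpc5 was tested, and it was not called. The non-channel gene Trpc4ap rose from 71.8 and 71.1 RPKM to 92.2 and 88.7 RPKM (log2 fold change 0.34, SE 0.06, adjusted p = 0.00345), and it overlaps Myh7b on the opposite strand.

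In the CLC family of chloride channels and chloride/proton exchangers, 1 of 7 tested genes rose and 0 fell. Clcn4, an exchanger of endosomes (chr7:7282309-7300851, minus strand), had 12.3 and 13.9 RPKM in WT and 21.5 and 18.9 RPKM in KO. All KO values were higher (log2 fold change 0.63, SE 0.09), and the adjusted p was 0.000745. Clcn4 overlaps Mir5620 and Gm45631 on the opposite strand. Clcn3, a close relative, had 5.31 and 5.69 RPKM in WT and 5.30 and 5.13 RPKM in KO (log2 fold change -0.07, 95% interval -0.27 to 0.12). The share of Clcn4 in the summed Clcn RPKM was 28.3% and 30.8% in WT and 41.7% and 39.4% in KO.

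None of the 5 tested P2X genes, which encode cation channels opened by extracellular ATP, was called by edgeR. P2rx1 made up 92.0% to 94.0% of the family's RPKM, with 30.5 and 31.3 RPKM in WT and 32.4 and 34.0 RPKM in KO (log2 fold change 0.11, 95% interval -0.09 to 0.30). P2rx4 was near 1 RPKM (log2 fold change -0.11, SE 0.27). P2rx7, the receptor that opens a large pore in mature T cells, was below 1 RPKM, with 131 and 92 counts in WT and 104 and 134 in KO, so that only large changes could have been seen. P2rx3 and P2rx5 had at most 28 counts in a library.

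Other genes of the calcium pathway showed calls in both directions. Of 38 tested genes in a list of phospholipase C, calcium pumps, calmodulin, calcineurin, NFAT and mitochondrial uptake, 4 rose, 4 fell and 30 were not called, where 6.63% of all genes tested rose and 7.89% fell; the median log2 fold change was 0.06. The calmodulin gene Calm3 rose (log2 fold change 0.48, SE 0.07) while Calm2 fell (-0.27, SE 0.07). Genes of calcineurin went both ways. Ppp3cb, a catalytic subunit gene, rose (0.30, SE 0.08) and Ppp3r1 fell (-0.29, SE 0.08), while Ppp3ca and Ppp3cc were not called. Itpkb, a kinase that converts IP3 and is needed for thymocyte selection, was at 866 ± 47.7 CPM in WT and fell to 635 ± 74.5 CPM in KO (-0.44, SE 0.09). Vdac1, the main pore of the outer mitochondrial membrane, rose (0.41, SE 0.10). Atp2b4 rose as well (1.28, SE 0.34) and Camk4 fell (-0.24, SE 0.07). Ppp3r1, Atp2b4 and Camk4 were not followed through the fits that left out 1 library. Calls were lost without WT replicate 1 for Calm2 (0.0715) and Ppp3cb (0.114), without WT replicate 2 for Calm2 (0.147) and Ppp3cb (0.0525), and without KO replicate 1 for Vdac1 (0.0581).

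Of 33 tested genes in a list of channels outside these families, 2 rose and 2 fell, with a median of -0.14; the shares over all genes tested are the 6.63% and 7.89% given above. Lrrc8c (log2 fold change -0.52, SE 0.09) and Lrrc8b (-0.48, SE 0.14), subunits of the volume-regulated anion channel, fell, and the Lrrc8b call was lost without WT replicate 1 (0.073) or KO replicate 2 (0.228). Clic1, a chloride intracellular channel gene, rose from 199.6 ± 0.893 CPM in WT to 306 ± 25.7 CPM in KO (0.62, SE 0.08). Scnn1a, a subunit of the epithelial sodium channel, rose from 60 and 44 counts to 179 and 206 counts (1.87, SE 0.43, adjusted p = 0.0125).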

How the data were processed

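For every library the authors deposited a table of gene counts, and for the series an RPKM table with gene symbols, types and lengths in bases. Tools named in the submitters' processing notes are FastQC 0.11.5, cutadapt 1.17, STAR 2.6.0a, HTSeq 0.6.1 and DESeq2 1.24.0, with build GRCm38 (mm10); for strand setting and annotation release, not given in the sources used here. Each deposited RPKM value equals the count per 1000 bases of the listed length and per 1000000 counts of the library, within a relative tolerance of 1e-06.

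The test was edgeR's quasi-likelihood test (version 4.0.16, R 4.3.3, robust fit, TMM, filterByExpr, genotype only), two-sided, with Benjamini-Hochberg adjustment over all 16588 genes tested; a call is an adjusted p under 0.05. SEs come from the log2 fold change and the F statistic, and 95% intervals from those SEs. The script was tested on simulated data with 50 changed genes at each size. At true changes of 0.5, 1, 2 and 3 log2 units, 24%, 40%, 62% and 76% of them were called. Of 110 calls in all, 9 were of unchanged genes. Coordinates are from GENCODE release M21, matched by gene identifier; of the members, 137 have a RefSeq promoter. Named genes were Srsf1, every called member, the tested Orai, Stim, Itpr and P2rx genes, 7 channels known in T cells, the 10 most abundant members, the 3 untested members with the highest summed counts, and up to 5 called genes of each outside list; others were picked after their values were seen. The members and lists were chosen with earlier results of these data known. Alternatives used DESeq2 1.42.0 and limma 3.58.1. Replicate libraries were not repeats of one library: chi-square divided by degrees of freedom came to 16.7 within WT and 19.0 within KO, against 58.4 to 71.4 between groups. Results for a few items are not reported here.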

Additional observations from a re-analysis of the deposited data

How the results depend on the processing

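Among called members, Kcna2, Scn4a, Orai1, Clcn4, Trpm7 and Trpc4ap were called under every alternative run on counts, whereas Kcnk5, Kcnc1, Cacna1e, Scn4b and Itpr3 each lost their call without at least 1 library. Over the 4 fits that left out 1 library, 5 to 8 members rose and 2 to 6 fell, and the members' median lay between -0.16 and -0.0603. On log2 of the deposited RPKM plus 0.5 limma called 0 genes higher and 0 lower, members included, although 4289 genes had an unadjusted p under 0.05; with 0.1 added the counts were again 0 and 0, with 4370. The median of the members was -0.0147 with 0.5 added. Restricted to a mean of at least 1 RPKM, limma called 483 genes higher and 621 lower, with 4 members higher and 1 lower (Orai1), and a median of -0.0107. That median was -0.16 with no low-count filter and -0.12 by limma-voom. Same-numbered libraries did not deviate together (correlation -0.04 across genes), so the numbers were not taken as pairs; with a replicate block 5 members rose and 6 fell, the median was -0.12, the Itpr3 call was lost (adjusted p = 0.0553) and Trpm4 stood at -0.0035.

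The direction turned for some genes that were never called. Kcnab2 was 0.0032 with upper-quartile factors, and Trpm4 was -0.002 by limma-voom and -0.0005 on log2 of RPKM plus 0.1. Leaving out 1 library gave -0.0461 to 0.0378 for Kcnab2, -0.34 to 0.34 for Trpm4, -0.10 to 0.0126 for Itpr2, -0.26 to 0.0644 for P2rx4, -1.19 to 0.33 for P2rx5 and -0.17 to 0.37 for P2rx7. P2rx3 ranged from -6.63 to 6.13, where the library left in a group had 0 counts and the fitted value is no bound. Depth limits the low genes: the median SE was 0.95 log2 units for tested members under 1 RPKM and 0.08 for those of at least 10 RPKM.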

Other observations

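Transcripts beside some called channel genes were measured too; the ones named here were chosen with their values in view. Within 100 kb of Kcna2, the long noncoding gene RP23-469H5.3 lies 2.7 kb upstream on the same strand. It rose (log2 fold change 1.19, SE 0.27, adjusted p = 0.0115). RP23-469H5.1, between Kcna3 and Kcna2, rose too (0.27, SE 0.07, 0.0308). It lies 46.8 kb upstream of Kcna2 and starts at base 107039504, close to the end of Kcna3 at 107038070 on the same strand. Kcna3, which was not called, also had a log2 fold change of 0.27. Beside Orai1, AC121564.2 lies 16.7 kb upstream on the same strand and fell from 15.8 to 4.31 CPM (-1.87, SE 0.27, adjusted p = 0.000643), and RP23-214I6.4, 5.5 kb downstream on the same strand, fell as well (-1.34, SE 0.38, 0.0328). The protein-coding neighbours of Orai1 that were tested, Rhof, Kdm2b, Morn3 and Tmem120b, were not called. Around Scn4a, Icam2, Ddx42, Psmc5, Smarcd2 and Cd79b rose, with log2 fold changes of 0.37, 0.33, 0.36, 0.31 and 0.89 in that order. Ern1, Ftsj3 and Prr29 were not called. Beside Scn4b, which fell, Mpzl2 (-2.97, SE 0.49) and Mpzl3 (-0.80, SE 0.16) fell and Tmprss4 rose (1.79, SE 0.51). The other tested neighbours of Scn4b were not called. No tested gene within 100 kb of Clcn4, Itpr3, Kcnc1, Kcnk5, Trpc4ap or Trpm7 was called. Of all genes tested, 14.5% were called.

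Several low members had libraries that did not overlap between groups without passing the test. Such a gap was common, at 54.4% of tested members and 55.9% of all genes tested, so it sets no gene apart. The ones named here were picked after their values were seen. Kcnh4 had 69 and 63 counts in WT and 10 and 22 in KO (adjusted p = 0.105), Kcng3 had 44 and 36 against 10 and 4 (0.164), Kcnk12 had 30 and 16 against 0 and 4 (0.24), and Kcnmb3 had 25 and 19 against 50 and 92 (0.149). Among untested members, Kcnt1 had 39 of its 42 counts in KO replicate 1, and all 34 counts of Trpc1 were in WT replicate 1.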
